A study of Mus musculus with 6 samples.

Results

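The comparison described here set the gastric mucosa of 1 A4gnt null mouse against that of 1 wild-type mouse, both C57BL/6J and 5 weeks old. It used the 2 arrays labelled for that age out of 6 in the series, which holds a wild-type and a null array at 5, 10 and 50 weeks. The mucosa had been stripped off the muscle layer of the glandular stomach, and its total RNA was labelled with Cy3 and hybridised to a one-colour Agilent mouse array of 60-base probes. The labels name no treatment, and by them the groups differ in genotype and age alone. Neither the allele of the null mouse nor any pooling of animals is given in the sources used here. With 1 array a genotype no test between the genotypes could be made at this age, so differences are given as measured, and the words higher and lower refer to these 2 arrays.

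The enzyme made from A4gnt adds N-acetylglucosamine in alpha1,4 linkage to the ends of sugar chains on the gland mucin MUC6. Neck cells and pyloric gland cells secrete this mucin into the deep layer of the gastric mucus. The glands also hold acid-secreting parietal cells, pepsinogen-secreting chief cells and hormone-secreting endocrine cells, while pit cells line the surface. Mice that lack the enzyme are known to develop disease of the antral mucosa with age.

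A level is the log2 of a spot's background-subtracted signal minus the log2 of the 75th percentile of its array, so that a level of 0 lies at that percentile. A difference of 1 on this scale is 2-fold. Where a probe was well above background on only 1 of the 2 arrays, the fold is a lower bound, written "at least", taken against the higher of the other probe reading and the lowest signal well above background on the dim array. It is a bound under the main processing, and other settings gave smaller ones for some genes. Over all 6 arrays, 54.8% to 59.2% of spots were well above background and 0 spots were saturated. Repeated spots of a probe within an array had a median SD of 0.06 to 0.07 log2 units, taken over probes well above background. From these repeats alone, a difference between the 5-week arrays has an error of about 0.10. That error leaves out labelling, hybridisation and slide, and it does not cover dim probes. Such repeats say nothing about the spread between mice. The 3 wild-type arrays lay on slide 1 and the 3 null arrays on slide 2, so slide and genotype cannot be told apart at any age.

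The sex-linked genes bear on every comparison with the later ages. Xist, the RNA that silences an X chromosome in female cells, had levels of -0.67 in the wild-type and -1.92 in the null array at 5 weeks, and it was not well above background on the 4 older arrays. Eif2s3y, a Y-linked gene, was not well above background on either 5-week array and stood at 0.86 and 1.24 on the older wild-type arrays and 0.99 and 1.44 on the older null arrays. Both 5-week samples thus shared one pattern of sex-linked genes, and all 4 older samples shared the opposite one, while the labels give no sex. Within the 5-week pair the pattern matched. Between 5 weeks and the older arrays, age and this pattern cannot be told apart.

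A4gnt itself was measured in every sample first. Its level was -0.64 in the 5-week wild-type array and -0.13 and -0.13 in the wild-type arrays of 10 and 50 weeks, and it was not well above background in any null array (-6.78, -6.80 and -7.57 at 5, 10 and 50 weeks). The 5-week difference was at least 15.3-fold downward. The probe behind these values is shown because it checks the genotype labels. It reads, 5′ to 3′, at mm9 chr9:99521093-99521152, inside the A4gnt gene by the design's annotation:
A4gnt probe: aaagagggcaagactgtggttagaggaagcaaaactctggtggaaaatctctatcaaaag
Whether the deleted part of the gene covers this stretch is not given in the sources used here.

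Of the 28 genes listed for mucin O-glycan synthesis, 24 were scored, meaning well above background on at least 1 of the 2 arrays, and A4gnt was the only one past 4-fold in either direction. C1galt1, which makes the core 1 O-glycan, had levels of 2.14 in the wild-type and 2.09 in the null array. Its chaperone C1galt1c1 stood at 1.87 and 2.20. Gcnt1, a core 2 branching enzyme, was 2.02-fold higher in the null array (-1.04 against -0.02), and St6galnac1, which adds sialic acid to the first sugar, was 2.16-fold lower (4.25 against 3.14). The median difference of the 24 was 0.03. Muc6, the mucin that carries the enzyme's product, was 1.82-fold higher in the null array, at 1.99 in the wild-type and 2.85 in the null array.

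The genes beside A4gnt on chromosome 9 were looked at because a targeted gene carries its neighbourhood with it. Of the 50 nearest scored genes, 25 on each side, 5 were at least 2-fold apart at 5 weeks, which is 10.0% against 10.6% of all scored genes. They were Pxylp1, Nmnat3, Rbp2, Esyt3 and Srprb, with 1 higher and 4 lower in the null array. Among those 5, Pxylp1, a phosphatase of proteoglycan synthesis, was 5.61-fold lower in the null array, with levels of 2.20 and -0.29. Pxylp1 was also low in both older null arrays (-0.26 and -0.50) against 1.98 and 1.55 in the older wild-type arrays, so its 3 wild-type and 3 null values did not overlap. Rbp2, a retinol-binding protein of the same region, showed the same layout, with wild-type levels of 0.69, 1.25 and 1.59 and null levels of -0.39, -0.05 and -0.25. No share of all genes with such a layout was taken, and any part of the neighbourhood in these values was not tested.

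Of 31679 genes on the array, 18174 were scored at 5 weeks: 16386 on both arrays, 926 on the null array only and 862 on the wild-type array only. The null array was at least 2-fold higher for 851 genes (4.68% of those scored) and at least 2-fold lower for 1081 (5.95%). At 4-fold, 196 genes were higher (1.08%) and 111 lower (0.611%). Counts of list members past 2-fold or 4-fold at 5 weeks are read against these shares. The split depends on the scaling: with the arrays scaled on spike-in RNA, 1167 genes were 2-fold higher and 759 lower. The median difference over genes seen on both arrays was -0.02, and 0.15 with spike-in scaling. For scale, the 3 pairs among the wild-type arrays differed by 2-fold or more at 9.06% (5 against 10 weeks), 9.92% (5 against 50 weeks) and 7.61% (10 against 50 weeks) of their scored genes, beside 10.6% for the genotype pair at 5 weeks. The 3 pairs among the null arrays differed at 7.50%, 11.3% and 4.39%, in the same order. The share between genotypes at 5 weeks was thus close to that between the 5-week and older wild-type arrays, which differ in age and in the pattern of sex-linked genes. It was above the share in the pairs of 10 against 50 weeks, where that pattern matches. Pairs within a genotype share a slide, whereas the genotype pair does not.

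**Figure D1:**
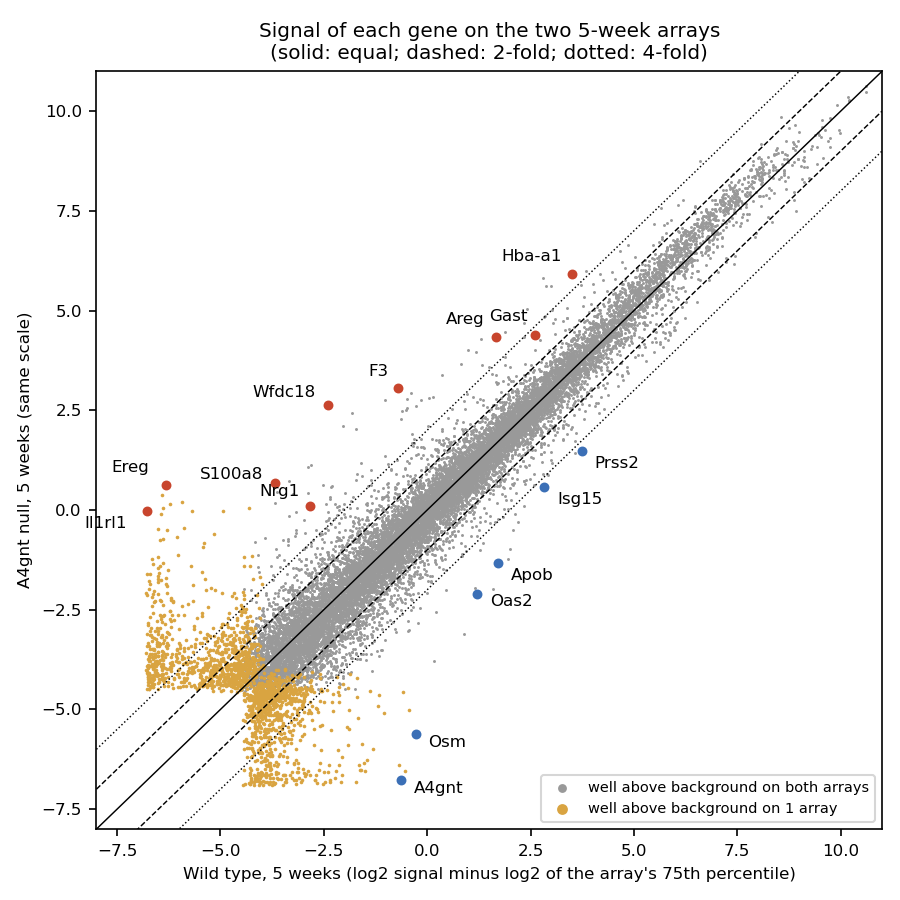
Level of each gene scored at 5 weeks in the wild-type array (horizontal axis) and the null array (vertical axis), both in log2 units relative to the array's 75th percentile. Most genes lie along the diagonal, with a median difference of -0.02, and A4gnt stands far below it.

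The values of the 5-week wild-type array were set against the other wild-type arrays. Among the 851 higher genes it held the lowest of the 3 wild-type values for 560 (65.8%), against 30.5% of all scored genes, and among the 1081 lower genes it held the highest for 972 (89.9%), against 42.6%. A gene chosen for a low wild-type value has such a value by the choice, so these shares describe the lists only. The null 5-week value lay above all 3 wild-type arrays for 595 of the 851 higher genes (69.9%), and at least 2-fold above the nearest of them for 247 (29.0%). It lay below all 3 for 696 of the 1081 lower genes (64.4%), and at least 2-fold below the nearest for 83 (7.68%). Over 18151 scored genes, 28.6% of null values lay above all 3 wild-type arrays and 24.03% below, and the counts of such values for the gene groups below are read against these shares.

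**Figure D2:**
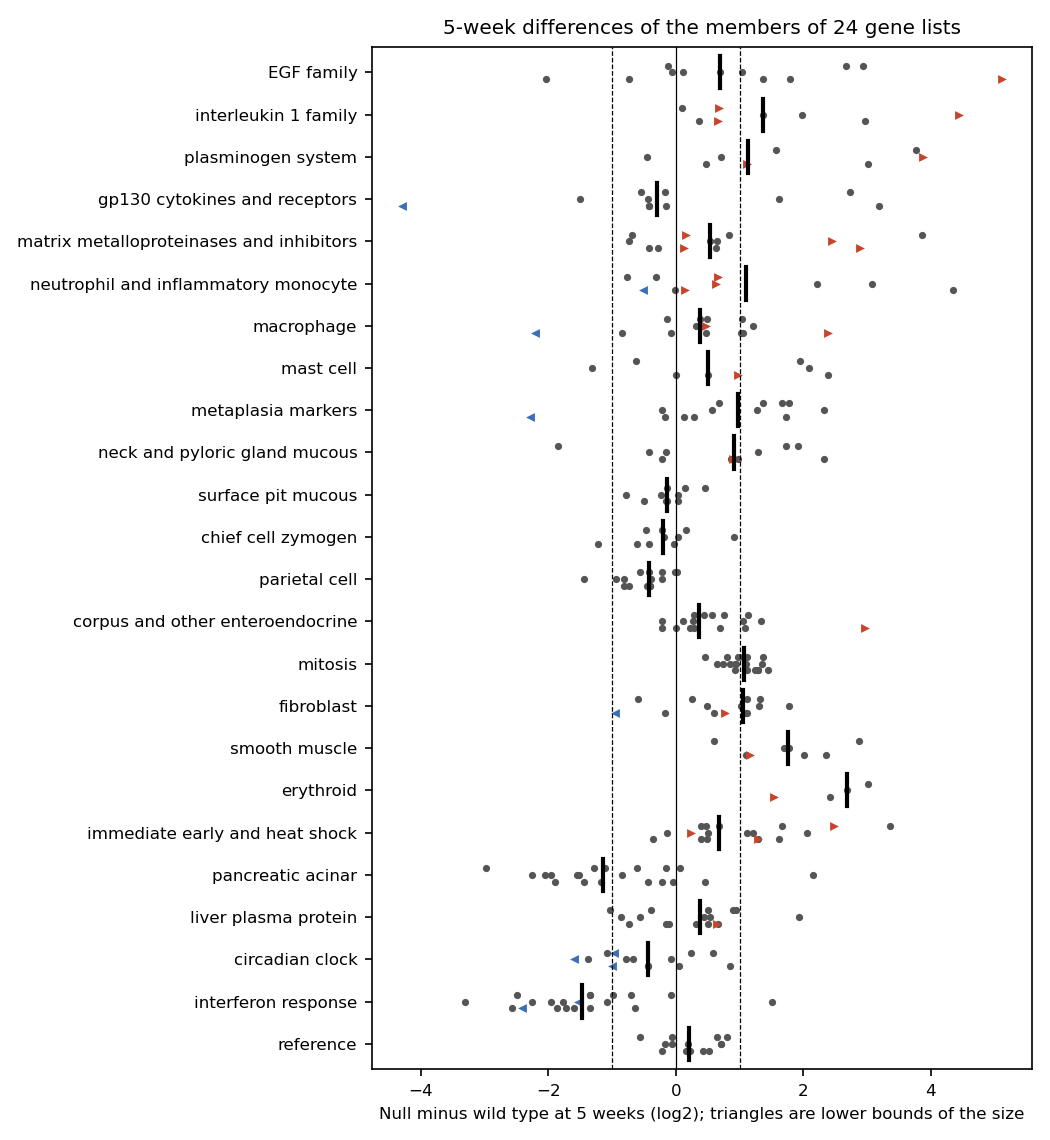
Difference between the null and the wild-type array at 5 weeks (log2, horizontal axis) for the scored members of 24 gene lists, 1 point a gene, with triangles for lower bounds and black bars for list medians. The interferon response list has its median at -1.48 and the smooth muscle list at 1.76.

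Several transcripts that can mark how a piece of mucosa was taken also differed between the 2 arrays. Smooth muscle genes were 2-fold higher in the null array in 8 of 9 scored members (beside 4.68% of all scored genes), with a median difference of 1.76. Cnn1, a contractile protein of smooth muscle, stood at -0.27 in the wild-type and 2.61 in the null array, and Myh11, smooth muscle myosin, at -2.59 and -0.58. Here the wild-type 5-week array was the one apart: its Cnn1 level lay under the 3.04 and 3.84 of the older wild-type arrays, and 0 of the 9 null values fell outside the wild-type range. At 50 weeks the layout was the reverse, with 8 of 9 smooth muscle genes 2-fold lower in the null array, beside 5.55% of all scored genes.

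Red cell transcripts were higher in the null array as well. Hba-a1, an alpha globin, stood at 3.50 in the wild-type and 5.92 in the null array, and Alas2, the first enzyme of erythroid heme synthesis, at -2.36 and 0.33. All 4 scored erythroid genes of 7 listed were past 2-fold and above every wild-type array, beside 4.68% and 28.6% of all scored genes. Ahsp, which chaperones alpha globin, was not well above background on either 5-week array. Globin genes are near-identical copies, so the share of each is uncertain.

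Immediate early and heat shock genes respond within minutes to handling as well as to growth signals. In the null array 9 of 18 scored members were 2-fold higher, beside 4.68% of all scored genes, and 0 lower. Fos stood at 0.25 in the wild-type and 1.53 in the null array, and Fosl1 at -4.15 and -0.80, a 10.2-fold difference. The older wild-type arrays had Fos levels of 1.95 and 1.43, so the null value lay inside the wild-type range for Fos, whereas 7 of the 18 null values lay above it.

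Pancreatic acinar genes differed the other way, with 11 of 20 lower in the null array (beside 5.95% of all scored genes), 1 higher, and a median difference of -1.14. Only 1 of the 20 null values lay below all wild-type arrays and 3 lay above. The chymotrypsin-like protease Ctrl stood at 2.01 in the wild-type and -0.97 in the null array (7.92-fold), the elastase Cela2a at 2.59 and 0.63, and the trypsinogen Prss2 at 3.74 and 1.47. Cela2a was not well above background in the older null arrays, at -6.90 and -6.90. The 1 higher member, Zg16, a lectin of secretory granules, is also a goblet cell gene. Of 5 scored fat genes 3 were seen only in the wild-type array, Cfd, also called adipsin, by at least 11.6-fold, Car3 by at least 4.17-fold and Retn by at least 1.32-fold. The 2 seen on both were Fabp4 (4.10 against 4.90) and Cidec (1.8 against 1.9), and Adipoq, Lep and Plin1 were not well above background on either.

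Liver plasma protein genes stood at like levels in the 5-week pair, with 1 of 17 higher, 1 lower and a median difference of 0.38. In the null arrays of 10 and 50 weeks 16 and 15 of 17 were 2-fold lower, beside 6.53% and 5.55% of all scored genes. The reference genes, among them Actb and Gapdh, had a median difference of 0.21 with 0 of 14 past 2-fold. In bulk tissue, fewer cells of a type and less RNA per cell cannot be told apart. The part of muscle, red cell, pancreas, fat and handling transcripts in the gene groups that follow was not tested.

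**Figure D3:**
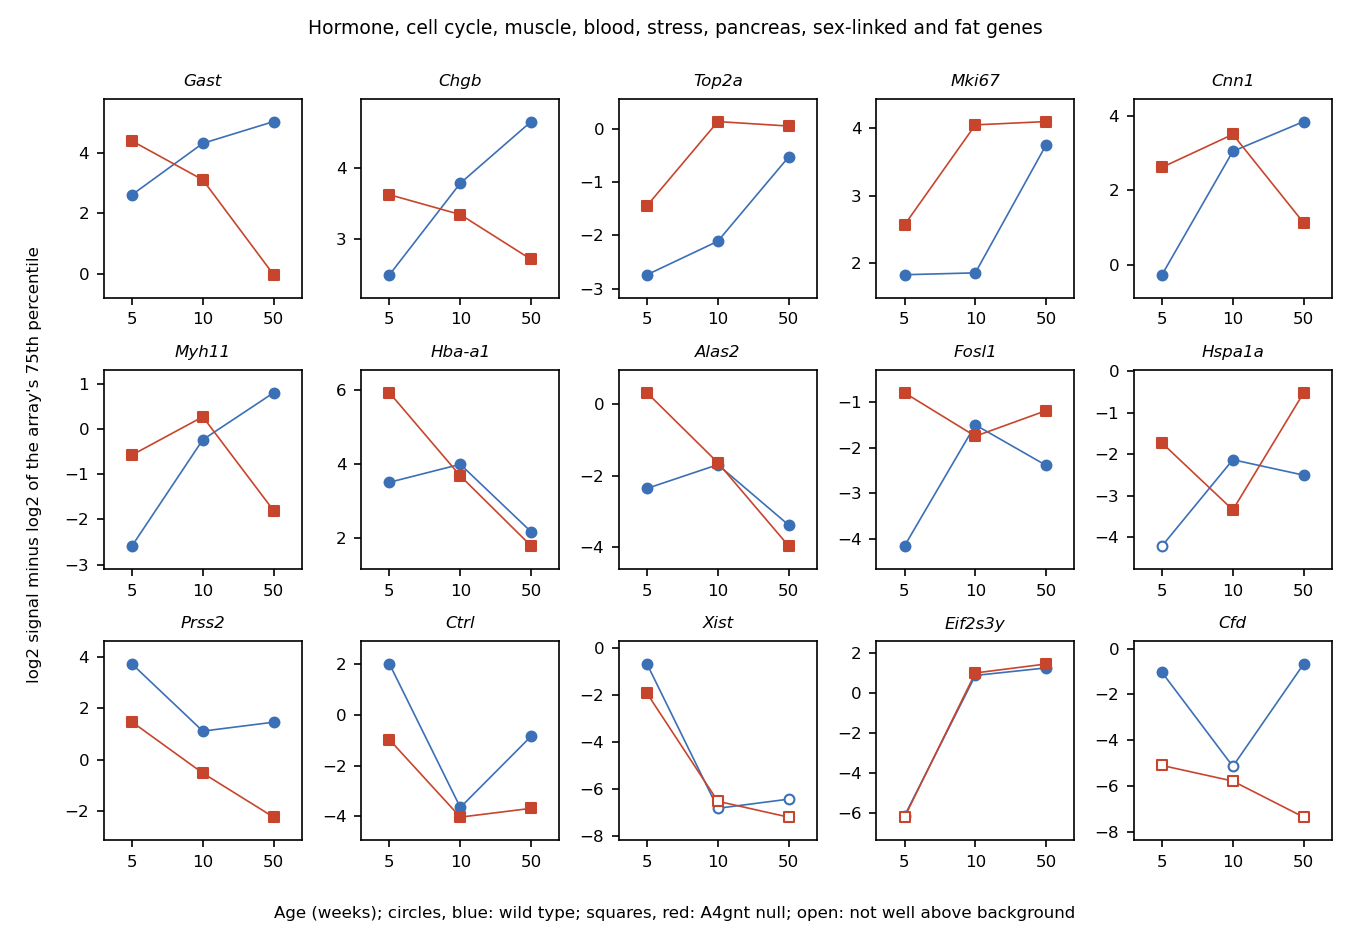
Levels of 15 marker genes (log2 relative to the array's 75th percentile) on the wild-type (blue circles) and null (red squares) arrays at 5, 10 and 50 weeks, with the ages evenly spaced, 1 point an array, and open symbols for readings not well above background. Cnn1 is lowest in the wild-type array of 5 weeks and the null array of 50 weeks, and Xist is high on the 5-week arrays alone.

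The largest measured difference upward was that of Wfdc18. Wfdc18, a small secreted protease inhibitor-like protein, stood at -2.41 in the wild-type and 2.63 in the null array, a 33.0-fold difference, and its null value was 9.47-fold above the nearest wild-type array. It was high in the older null arrays too, at 4.69 and 3.11, against -3.08 and -0.61 in the older wild-type arrays, so wild-type and null values did not overlap. Prap1, an acidic protein of the gut surface, behaved likewise, with wild-type levels of -1.81, -1.93 and 0.81 and null levels of 2.42, 4.0 and 2.27 at 5, 10 and 50 weeks. Its 5-week difference was 18.8-fold.

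Reg3g, a secreted lectin that kills Gram-positive bacteria, stood at -2.81 in the wild-type and 1.13 in the null array, 15.3-fold higher, and at 2.24 and 4.68 in the older null arrays against -1.30 and -1.13 in the older wild-type arrays. Its close relative Reg3b was 2.20-fold higher (0.58 against 1.72), and Reg3a was seen only in the wild-type array (at least 8.92-fold). Reg1 and Reg2, which the exocrine pancreas also makes, were nearly level, at 3.77 and 4.33 in the wild-type and 3.50 and 4.01 in the null array. Reg lectins are near-identical in parts, so signal may be shared between their probes.

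Anxa8, an annexin of stratified epithelia, was 17.6-fold higher by its brightest probe (-2.04 against 2.10), while its other probe gave a difference of 1.09. Aldh1a3, an enzyme that makes retinoic acid, stood at -2.89 in the wild-type and 1.09 in the null array, 15.8-fold higher and 2.44-fold above the nearest wild-type array. Among 20 genes of retinoid handling, 14 were scored, 2 were higher and 2 lower, with 3 null values above all wild-type arrays and 6 below. Rdh10, which makes the retinaldehyde that Aldh1a3 uses, was 2.37-fold higher (-1.27 against -0.02), and Adh7, a retinol dehydrogenase of the stomach lining, was 2.01-fold lower (1.76 against 0.76).

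Nccrp1 (13.6-fold), the glycoprotein Lrg1 (13.5-fold) and the collagen chain Col18a1 (10.1-fold) were also among the 15 largest, and each was high in both older null arrays. Lrg1 had wild-type levels of -1.73, 1.33 and 0.60 and null levels of 2.03, 3.71 and 4.16. Carmil3 and Sprr2g did not follow that layout. Carmil3 stood at 0.74 in the 5-week null array and between -4.55 and -3.28 on the other 5, and Sprr2g, a cornified envelope protein from a family of near copies, at 0.46 against -3.62 in the 5-week wild-type array and -1.70 and -4.28 in the older null arrays.

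Ligands of the EGF receptor family drive the growth and repair of gastric epithelium. Of 14 listed members 12 were scored, 6 were 2-fold higher in the null array, beside 4.68% of all scored genes, and 1 was lower. Ereg, epiregulin, was not well above background in the wild-type array (-6.32) and stood at 0.64 in the null array, at least 34.8-fold higher. Over the alternative settings its log2 bound went down to 2.61. The older wild-type arrays had Ereg levels of -1.0 and -2.81, so the distance to the nearest wild-type array was 3.10-fold. Areg, amphiregulin, stood at 1.67 and 4.35 (6.39-fold) with 2.85 and 2.63 in the older wild-type arrays, and Nrg1, neuregulin 1, at -2.84 and 0.10 (7.69-fold) with -0.90 and -1.92.

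Hbegf, heparin-binding EGF, was 3.45-fold higher (0.51 against 2.30), Nrg4 2.57-fold (-3.36 against -1.99) and Btc, betacellulin, 2.06-fold (-2.63 against -1.59). Egf, which salivary glands make in quantity, was the 1 lower member, 4.12-fold, at -1.70 and -3.74. Tgfa, the ligand that parietal cells are known to make, was level at -3.42 and -3.48. In all, 8 of the 12 null values lay above every wild-type array and 1 below.

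The interleukin 1 family showed a like layout. Of 14 members 8 were scored, 4 were 2-fold higher (beside 4.68% of all scored genes) and 0 lower. Of the 8 null values, 5 lay above all wild-type arrays. Il1b stood at -4.10 in the wild-type and -1.13 in the null array, 7.81-fold higher, and at -1.33 and -0.77 in the older null arrays. Il33, an alarmin of epithelial and stromal nuclei, was 3.94-fold higher (2.35 against 4.33). Il1rl1, its receptor, was seen only in the null array at -0.03, at least 21.9-fold higher, and in the older pairs at 1.73 and 1.19 against -2.40 and -2.86, while another of its probes gave a 5-week difference of 1.58. Il18r1 was 2.57-fold higher (-2.59 against -1.23). Il1a and Il1rn were not well above background on either 5-week array.

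Among the cytokines that signal through gp130, Il11 was 9.08-fold higher (-3.34 against -0.16) and its relative Lif 2.84-fold lower (-2.33 against -3.84). Osmr, the oncostatin M receptor, was 6.63-fold higher (-2.97 against -0.24), and Socs3, the feedback inhibitor of this pathway, 3.06-fold (0.92 against 2.53). Osm, the ligand of Osmr, was seen in the 5-week wild-type array alone, at -0.27, with all 5 other arrays not well above background. That spot had a pixel SD of 28.4% of its mean, wider than 98.8% of spots of like brightness. Il6 was not well above background on either 5-week array.

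Genes of plasminogen activation and clotting act where tissue is remodelled. Of 8 scored members 5 were 2-fold higher (beside 4.68% of all scored genes) and 0 lower. Of the 8 null values, 4 lay above all wild-type arrays. F3, tissue factor, stood at -0.71 and 3.06 (13.6-fold), and Plaur, the urokinase receptor, at 0.37 and 3.39 (8.12-fold). Plau, urokinase, was seen only in the null array, with a lower bound of 2.17-fold. The older wild-type arrays again lay between: F3 had 2.17 and 0.41 there, so that its null value was 1.85-fold above the nearest wild-type array.

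Of the matrix metalloproteinases and their inhibitors, 3 of 13 scored members were past 2-fold, all higher and all past 4-fold. This stands beside 4.68% and 1.08% of all scored genes. Of the 13 null values, 6 lay above all wild-type arrays and 2 below. Timp1, an inhibitor of these enzymes, was 14.5-fold higher (-3.69 against 0.17). The stromelysins Mmp3 and Mmp10 were seen only in the null array, with lower bounds of 7.43-fold and 5.48-fold, and stood at -0.18 and 0.65 in the 50-week null array. Adam8, a membrane protease of leukocytes and injured epithelium, was 12.6-fold higher (-3.25 against 0.40). Ptgs2, the inducible enzyme of prostaglandin synthesis, was at least 6.65-fold higher, and its constitutive relative Ptgs1 stood at 0.12 and 0.72.

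**Figure D4:**
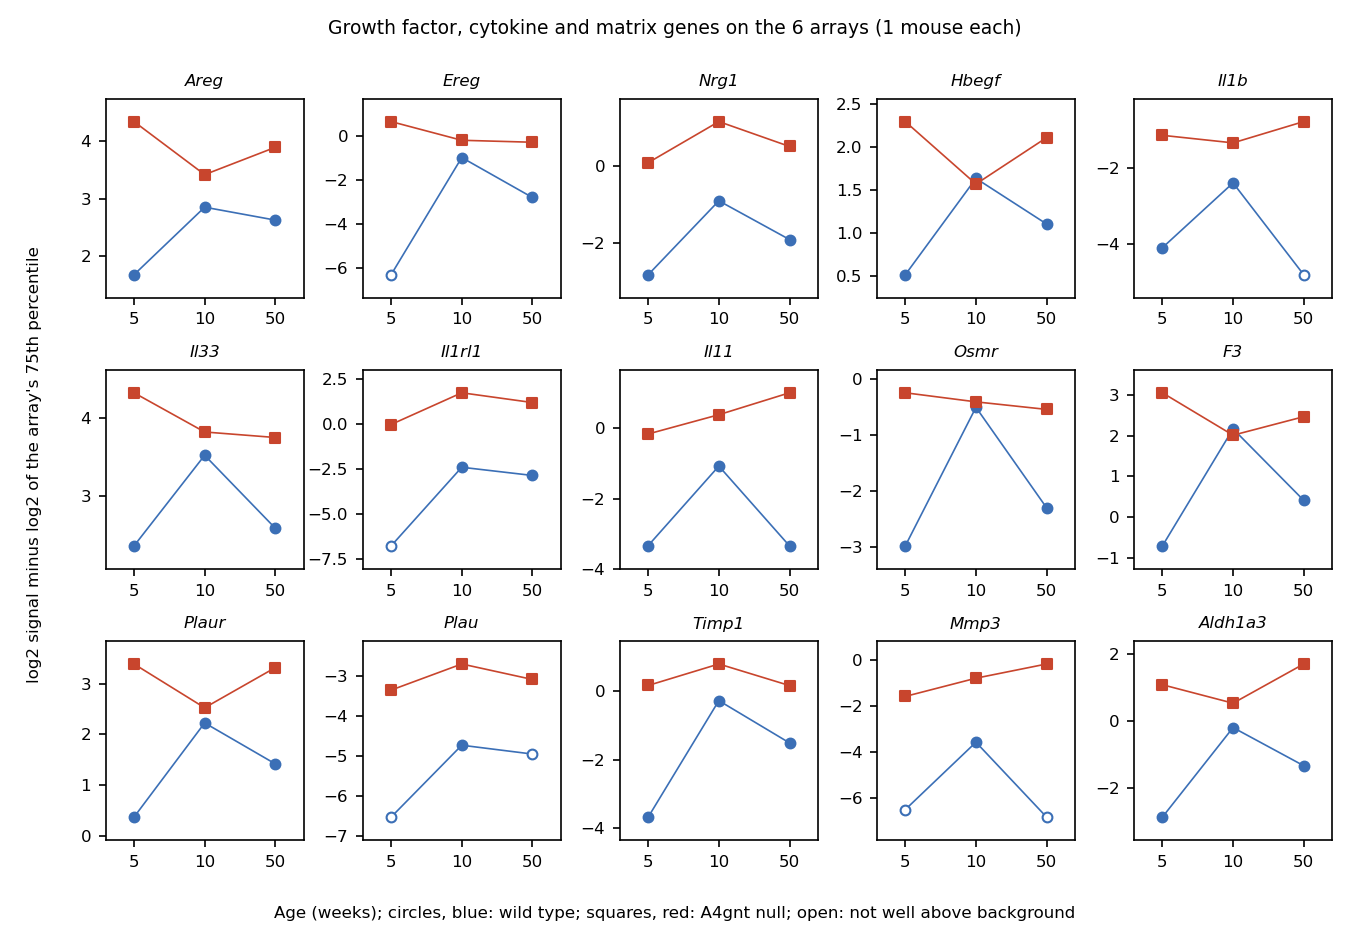
Levels of 15 genes of growth factor, interleukin 1, gp130, clotting and protease pathways (log2 relative to the array's 75th percentile) on the wild-type (blue circles) and null (red squares) arrays at 5, 10 and 50 weeks, with the ages evenly spaced, 1 point an array, and open symbols for readings not well above background. Ereg lies at -6.32 on the wild-type 5-week array and 0.64 on the null one, with the older arrays between.

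Stromal growth signals followed. Inhba, the subunit of activin A, had null levels of -2.31, -1.89 and -1.51 and read as background on the wild-type arrays (-6.61, -5.60 and -6.89), with a bound of at least 4.50-fold at 5 weeks. Fst, follistatin, which binds activin, was 9.89-fold higher (-2.88 against 0.42), and Grem1, a Bmp antagonist of stromal cells, at least 7.07-fold. Of the stromal ligands that act on epithelium, Fgf7 was 4.03-fold higher (-4.27 against -2.26) and Hgf was seen only in the null array, with a lower bound of 2.17-fold. With normexp background the difference of Fgf7 was 0.68. In the hedgehog list Shh, made by parietal cells, was 2.22-fold lower (-0.96 against -2.12) and its receptor and target Ptch1 2.26-fold lower (-1.91 against -3.09).

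Fibroblast genes were higher in 7 of 14 (beside 4.68% of all scored genes) and lower in 0, with a median difference of 1.06, and 8 null values lay above all wild-type arrays (beside 28.6%) and 1 below. S100a4 was 3.44-fold higher (-1.29 against 0.49) and Pdgfra 2.15-fold (-2.45 against -1.35), while the fibrillar collagens Col1a1 (0.86 and 1.35), Col1a2 (2.28 and 2.54) and Col3a1 (1.37 and 1.97) stayed under 2-fold. Null values of 8 of the 13 scored collagen chains lay above all wild-type arrays. Of the 13, 5 were 2-fold higher (beside 4.68% of all scored genes) and 0 lower. Those 5 were Col18a1, the basement membrane chains Col4a1 (2.33-fold) and Col4a2 (2.13-fold), and Col12a1 and Col5a2, with lower bounds of 2.10-fold and 2.02-fold. Col18a1 stayed past 2-fold in all 6 alternative settings. Col4a1, Col4a2, Col12a1 and Col5a2 were each under 2-fold in 1 of 6, at 0.85, 0.74, 0.44 and 0.43. The fibroblast and collagen values stand beside the smooth muscle values given above, whose part in the fibroblast values was not tested.

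Leukocyte genes differed by type. S100a8 and S100a9, the paired calcium-binding proteins of neutrophils, were 20.3-fold (-3.68 against 0.67) and 8.47-fold (-0.60 against 2.48) higher in the null array. Retnlg was 4.62-fold higher, while Cxcr2, Ly6g and Mpo, defining neutrophil genes, were not well above background on either array. The neutrophil list had 3 of 10 scored members 2-fold higher (beside 4.68% of all scored genes) and 0 lower. It had 5 null values above all wild-type arrays and 1 below, and a median difference of 1.1 over members seen on both arrays. When both signals had to be at least 4 times the lowest one well above background, that median was -0.17. Of the 6 members seen on both arrays, 3 had a difference above 0 and 3 below, among the latter Csf3r at -0.77. Cxcl1, a chemokine for neutrophils, was at least 6.42-fold higher.

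Macrophage genes were 2-fold higher in 5 of 16 scored members (beside 4.68% of all scored genes) and lower in 1, and 12 of the 16 null values lay above every wild-type array (beside 28.6%). Clec7a, a receptor for fungal glucans, was at least 5.25-fold higher and Mpeg1 2.31-fold (-2.62 against -1.41), while Adgre1, the F4/80 antigen, stood at -2.81 and -2.88. Cd163 was the 1 lower member, at least 4.64-fold, on a spot of the wild-type array whose pixel SD was 34.7% of its mean. Of 8 scored mast cell genes 3 were 2-fold higher (beside 4.68% of all scored genes) and 1 lower. Only 2 of the 8 null values lay above all wild-type arrays (beside 28.6%), and 1 lay below. The mast cell proteases Mcpt1, Mcpt2 and Mcpt4 were 5.22-fold, 4.28-fold and 3.86-fold higher, and Tpsb2, a tryptase, 2.49-fold lower. T and NK cell genes had 0 of 6 scored members past 2-fold, and Cd79a of B cells was not well above background on either array.

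Acid-secreting cells showed small differences at this age. Of 15 parietal cell genes, all seen on both arrays, 1 was 2-fold lower in the null array and 0 higher, with a median difference of -0.42 and 14 of 15 below 0, and 4 null values lay below all wild-type arrays and 1 above. Atp4a and Atp4b, the subunits of the proton pump, stood at 6.40 and 9.28 in the wild-type and 5.94 and 9.06 in the null array. Hrh2, the histamine receptor of parietal cells, was the 1 past 2-fold, at -2.13 and -3.57 (2.71-fold). In the older pairs, 12 of 15 parietal genes were lower at 10 weeks (beside 6.53% of all scored genes) and 10 of 15 at 50 weeks (beside 5.55%). Atp4a had differences of -1.91 and -1.63 there against -0.45 at 5 weeks.

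Chief cell genes had 4 of 10 null values below all wild-type arrays and 2 above, and 1 of 10 past 2-fold: Bhlha15, the factor MIST1 that matures the secretory apparatus, at 2.17 and 0.94 (2.34-fold lower). Pgc, pepsinogen C, stood at 9.95 and 9.52. Pit cell genes had 0 of 10 past 2-fold, with 4 null values below all wild-type arrays and 3 above. Muc5ac stood at 8.02 and 7.88 and Tff1 at 10.60 and 10.64. Cblif, intrinsic factor, is listed for both parietal and chief cells and stood at 7.64 and 7.42.

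Gland mucous genes differed more. Of 11 scored members, 4 were 2-fold higher in the null array, beside 4.68% of all scored genes, and 1 lower. Tff2, the trefoil peptide secreted with MUC6, stood at 8.56 and 9.85 (2.45-fold), and Gkn3, a marker of neck cells, at 5.65 and 7.57 (3.79-fold). Aqp5, a water channel of pyloric gland cells, stood at 1.33 and 3.65, 5.00-fold higher, and Cd44 at -0.50 and 1.24 (3.33-fold). Each of these 4 lay above all wild-type arrays at 5 weeks, by 1.12-fold to 1.49-fold, and higher again in the 10-week null array. Bpifb1, a secreted antimicrobial protein, was 3.59-fold lower (3.57 against 1.73).

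The list of metaplasia markers shares Aqp5, Cd44 and Cldn7 with other lists. It had 6 of 13 members higher (beside 4.68% of all scored genes) and 1 lower (beside 5.95%), with 7 null values above all wild-type arrays (beside 28.6%) and 2 below. Dmbt1, a scavenger glycoprotein of mucosal surfaces, was 3.44-fold higher (4.86 against 6.64), Muc4 2.43-fold (-0.42 against 0.86) and Tff3 2.57-fold (0.39 against 1.75). Olfm4 was seen only in the wild-type array, at least 4.89-fold lower. Of the epithelial keratins, Krt7 was 7.90-fold higher (1.30 against 4.29) and Krt20 2.26-fold (5.46 against 6.63), while Krt8, Krt18 and Krt19 stayed within 1.28-fold. Cldn2, a tight junction protein that lets cations pass, was at least 20.6-fold higher and stood at 1.77 and 0.83 in the older null arrays against -1.32 and -1.19 in the older wild-type arrays. Cldn7 was 3.16-fold higher (0.12 against 1.78).

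Intestinal genes showed no common direction. Of 16 scored enterocyte genes 3 were higher and 3 lower, 4 null values lay above all wild-type arrays and 4 below, and Cdx1 and Cdx2, the intestinal master factors, were not well above background on either 5-week array. Apob, the apolipoprotein of chylomicrons, was 8.28-fold lower (1.72 against -1.33) and Alpi, intestinal alkaline phosphatase, 8.93-fold higher (-2.53 against 0.63). The older wild-type arrays had Alpi at -2.31 and 0.74, so its null value lay inside the wild-type range. Clca1 and Zg16 of goblet cells were 3.80-fold and 4.45-fold higher, while Muc2, their mucin, was not well above background on either array.

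Of the forestomach genes, the defining keratins Krt5 and Krt14 were near or below background on both 5-week arrays, with Krt5 at -3.80 and -3.93 and Krt14 not well above background. The older wild-type arrays had Krt5 at 0.40 and 1.08. Of 11 scored members 2 null values lay above all wild-type arrays and 5 below. The 3 list members past 2-fold were cornified envelope genes, all higher in the null array: Sprr1a at 2.88 and 5.62 (6.66-fold), Ivl, involucrin, at least 14.1-fold, and Lor, loricrin, 2.06-fold (-3.51 against -2.47).

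Cell division genes were higher together. All 20 scored mitosis genes had a difference above 0, from 0.45 to 1.45 with a median of 1.07. Past 2-fold were 11 of them, beside 4.68% of all scored genes. Top2a, which untangles replicated DNA, stood at -2.74 and -1.44 (2.46-fold), Cdk1, the mitotic kinase, at -1.86 and -0.51 (2.55-fold), Birc5 at 1.96 and 3.32 (2.57-fold) and Mki67, the proliferation antigen, at 1.83 and 2.57 (1.67-fold). Of the 20 null values, 0 lay outside the wild-type range, since the 50-week wild-type array was higher, with Mki67 at 3.75 and Top2a at -0.53. In the 10-week pair 20 of 21 scored mitosis genes were 2-fold higher (beside 5.16% of all scored genes) and in the 50-week pair 0 of 22 (beside 2.38%). DNA replication genes had 1 of 22 past 2-fold, Rrm2 of deoxynucleotide synthesis, at 0.48 and 1.60.

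Of 6 scored antral hormone genes 3 were 2-fold higher and 1 lower, and of 17 scored endocrine genes of the corpus and other sites 5 were higher and 0 lower, beside 4.68% and 5.95% of all scored genes. Gast, the acid-stimulating hormone gastrin, stood at 2.61 in the wild-type and 4.38 in the null array, 3.40-fold higher, and the transcription factors of gastrin cells Nkx6-3 and Pdx1 were 3.60-fold (0.88 against 2.73) and 2.26-fold (-3.10 against -1.93) higher. Gast was lower in the null arrays of 10 and 50 weeks, at 3.10 and -0.01 against 4.30 and 5.02. Sst, somatostatin, stood at 4.60 and 4.35, Hdc, which makes histamine, at 1.60 and 1.60, and Chga at 5.33 and 5.45. The 5 higher genes of the corpus and other sites were Tac1, with a lower bound of 7.85-fold, Neurog3 (2.52-fold), Chgb (2.19-fold), Tph1 (2.12-fold) and Scg2 (2.08-fold). The 5-week null values of Gast, Nkx6-3 and Pdx1 all lay within the range of the wild-type arrays.

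Genes of the interferon response were lower in the null array. Type I interferons bind one receptor on nearly all cells, and the factor they activate binds the interferon-stimulated response element in the promoters of antiviral genes. Of 24 listed genes 20 were scored, 15 were 2-fold or more lower in the null array (beside 5.95% of all scored genes), 5 of them past 4-fold (beside 0.611%), and 1 was higher. The median difference was -1.48, and it ran from -1.64 to -0.78 over the alternative processing settings.

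Oas2, an enzyme that senses double-stranded RNA, had the largest difference downward among the named transcripts seen on both arrays, 9.91-fold, from 1.21 in the wild-type to -2.10 in the null array. Its wild-type levels at 10 and 50 weeks were 0.18 and -1.10 and its null levels -3.65 and -3.47, so the genotypes did not overlap. Oasl2 stood at 2.08 and -0.49 (5.94-fold), Ifit3 at -2.0 and -4.49 (5.63-fold) and Isg15, the ubiquitin-like modifier, at 2.83 and 0.58 (4.77-fold). Ifit1 was seen only in the wild-type array, at least 5.33-fold lower. Ifit3, Ifit1 and Irf7, given below, were each under 2-fold in 1 of 6 alternative settings, at -0.79, -0.78 and -0.72. Oas2, Oasl2 and Isg15 stayed past 2-fold in all 6.

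Isg15 and Oasl2 show how much rests on the wild-type array. The Isg15 value of the 5-week null array was 1.06-fold below the lowest wild-type array, that of 50 weeks at 0.66, and the Oasl2 value 1.14-fold below it. Over the list, 8 of 20 null values lay below every wild-type array (beside 24.03% of all scored genes) and 1 above, and the wild-type 5-week array had the highest summed level of the list, 6.73 against 6.02 and 5.96 in the older wild-type arrays and 6.20 in the 5-week null array. Xaf1 stood at 0.46 and -1.49, Usp18, which removes ISG15, at 0.39 and -1.47, Gbp3 at -1.45 and -3.22 and Irf7, the factor that amplifies the response, at -1.30 and -3.04. The 1 higher member, Ifi27l2a, stood at 1.20 and 2.71. At 10 weeks 10 of 20 scored members were 2-fold lower in the null array (beside 6.53% of all scored genes) and 0 higher. At 50 weeks 3 of 20 were lower (beside 5.55%) and 2 higher (beside 2.38%).

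Upstream sequence was at hand for 17 of the 24 genes, from RefSeq on GRCm38.p6. The 250 bases before the start site were searched on both strands for a core of the interferon-stimulated response element, GAAA followed after any 2 bases by GAAA, where overlapping matches count 1 each. It was found in 9 of the 17 (52.9%) and in 8 of the 11 that were 2-fold lower (72.7%), against 512 of 17409 genes on the array with a sequence (2.94%). Among genes with a sequence, it was held by 302 of 11203 scored at 5 weeks (2.70%), 18 of 519 that were 2-fold higher (3.47%), 29 of 461 that were 2-fold lower (6.29%) and 9 of 53 that were 4-fold lower (17.0%). The lower sets include the lower genes of the list, which supply 8 of those 29, so these shares are not separate results. Members were listed as interferon response genes, and their share describes the list only. The promoters of 3 lower genes are shown as examples with more than 1 match, printed 5′ to 3′ on the gene's strand with the matches in capitals. Isg15 lies at chr4:156200819-156201068 on the minus strand, Ifit1 at chr19:34640639-34640888 and Ifit3 at chr19:34583279-34583528, both on the plus strand.
Isg15 promoter: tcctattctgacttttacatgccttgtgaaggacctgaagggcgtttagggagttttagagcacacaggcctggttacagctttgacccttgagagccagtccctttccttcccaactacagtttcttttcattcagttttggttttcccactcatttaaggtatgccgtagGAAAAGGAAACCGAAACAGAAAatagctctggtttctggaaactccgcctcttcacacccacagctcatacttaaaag
Ifit1 promoter: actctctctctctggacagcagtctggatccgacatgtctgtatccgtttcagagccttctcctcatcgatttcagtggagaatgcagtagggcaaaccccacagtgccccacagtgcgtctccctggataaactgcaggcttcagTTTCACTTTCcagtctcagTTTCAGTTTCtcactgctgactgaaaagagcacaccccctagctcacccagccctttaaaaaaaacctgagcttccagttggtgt
Ifit3 promoter: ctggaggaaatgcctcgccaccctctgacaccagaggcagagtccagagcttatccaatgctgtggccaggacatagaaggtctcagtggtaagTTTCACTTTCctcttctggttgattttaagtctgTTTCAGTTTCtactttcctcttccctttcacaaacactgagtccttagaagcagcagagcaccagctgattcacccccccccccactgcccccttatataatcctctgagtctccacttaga
The first bases of the matches lie 78, 72 and 66 bases before the start site in Isg15, where they overlap and are on the gene's own strand. They lie 104 and 85 bases before it in Ifit1, and 156 and 122 in Ifit3, on the opposite strand, where the motif reads as TTTC, any 2 bases and TTTC. Oas1a and Gbp3 held 2 matches each, and Oas3, Rsad2, Gbp2 and Cxcl10 held 1 each. The windows of Oasl2, Irf7 and Xaf1 held no match. A match is a description of the letters and not a measured binding site.

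The same windows were searched for TGANTCA, the site of the AP-1 factors to which Fos and Fosl1 belong. It was found in 46 of 519 genes 2-fold higher at 5 weeks with a sequence (8.86%), in 38 of 461 genes 2-fold lower (8.24%) and in 537 of 11203 scored genes (4.79%). At 4-fold it was in 12 of 122 higher genes (9.84%) and 7 of 53 lower ones (13.2%). It was also in 6 of the 17 interferon response promoters (35.3%) and 5 of the 11 that were 2-fold lower (45.5%), and those 5 are among the 38. Of the 10 EGF family genes with a sequence, 0 held it.

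**Figure D5:**
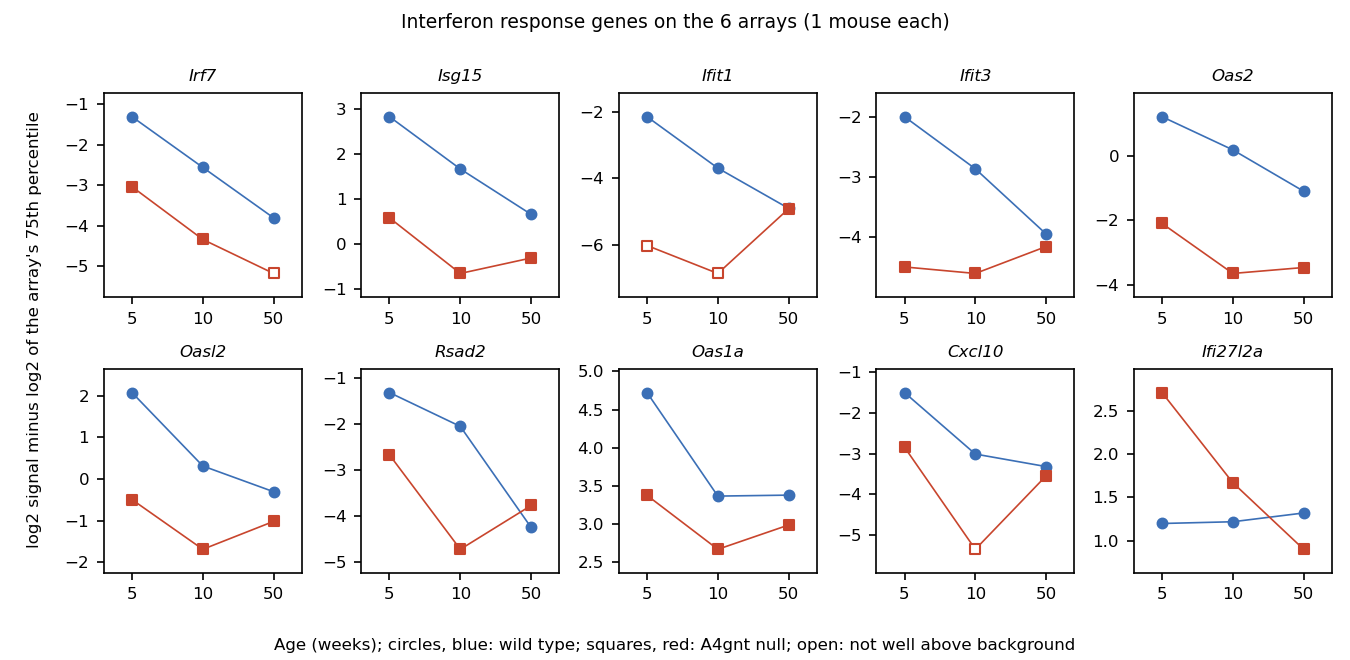
Levels of 10 interferon response genes (log2 relative to the array's 75th percentile) on the wild-type (blue circles) and null (red squares) arrays at 5, 10 and 50 weeks, with the ages evenly spaced, 1 point an array, and open symbols for readings not well above background. The wild-type 5-week array is the highest of the wild-type arrays for Oas2 and Isg15, and the 3 null values of Oas2 lie below all 3 wild-type values.

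Other lower genes formed no one group. Ptprd, a receptor phosphatase, was 6.08-fold lower (-0.22 against -2.83) and Kcnq1ot1, an imprinted antisense RNA, 4.95-fold (-0.47 against -2.78). Dmbx1 and Prima1 were 4.92-fold lower each and low in all 3 null arrays: Dmbx1 had wild-type levels of -1.22, -0.77 and -1.11 and null levels of -3.52, -2.92 and -3.71. Retnla, a secreted protein of alternatively activated macrophages and epithelium, was at least 15.8-fold lower. Duox2 and Duoxa2, the epithelial enzyme that releases hydrogen peroxide and its maturation factor, were 3.86-fold (-2.12 against -4.07) and 3.61-fold (3.02 against 1.17) lower, and both null values lay below all wild-type arrays.

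Some of the largest bounds rest on single spots. Pcdh17, Cd109 and Hsf2bp, like Osm, were seen in the 5-week wild-type array alone of the 6, with pixel SDs of 37.5%, 34.9% and 32.8% of the mean. The Pcdh17 and Cd109 spots lie next to each other, in rows 56 and 55 of column 52 of the array. Catsperb and Foxn1 were seen in the 5-week null array alone, with pixel SDs of 29.5% and 30.6%. The A4gnt spot had 16.1%. These bounds are single-spot readings that no other array of the series shares.

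Whether a difference belonged to 5 weeks more than to the other ages was tested over all 6 arrays with limma, which set the 5-week genotype difference against the mean of those at 10 and 50 weeks on 1 residual degree of freedom. The model fits the 5-week pair exactly. Its error is the disagreement between the 10-week and 50-week genotype differences, pooled with that of other genes, and not a spread between mice of a group. Genes whose later differences lie close together thus get a small error. Of 17850 genes tested, 0 passed a Benjamini-Hochberg adjusted p of 0.05 (0.0%), with a lowest adjusted p of 0.33. At an unadjusted p of 0.05, 2039 genes (11.4%) passed. With normexp background correction 12 genes passed. The 10 genes with the smallest p, all at an adjusted p of 0.33 in limma, include Saa3, an acute phase protein, whose null array exceeded the wild-type one by 0.51 at 5 weeks and by 5.80 and 6.00 at 10 and 50 weeks. Its wild-type levels were -0.46, -3.14 and -4.31 and its null levels 0.05, 2.66 and 1.69 at 5, 10 and 50 weeks. Mup3, one of several near-identical major urinary protein genes, had a difference of 1.97 at 5 weeks and of -1.98 and -1.93 later. Krt5 had -0.13 at 5 weeks and -4.39 and -4.51 later.

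Genes 2-fold apart at 5 weeks were followed into the older pairs over the 15959 genes well above background on all 6 arrays. Of 560 such genes higher at 5 weeks, 32.3% were 2-fold higher at 10 weeks and 24.8% at 50 weeks, against 3.74% and 1.76% of all these genes. Of 749 lower at 5 weeks, 18.8% and 13.8% were lower at 10 and 50 weeks, against 5.31% and 3.92%. In the opposite direction, 7.32% of the 560 were 2-fold lower at 10 weeks and 7.32% at 50 weeks, against 5.31% and 3.92%. Of the 749, 2.14% and 5.61% were 2-fold higher at 10 and 50 weeks, against 3.74% and 1.76%. At 50 weeks both groups thus exceeded all genes in either direction. Higher at all 3 ages were 71 genes and lower at all 3 were 82. No share over all genes was taken for these counts. The 3 pairs share no array, but all null arrays share a slide.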

How the data were processed

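Scanner files of all 6 arrays were used, made by the submitters with Agilent Feature Extraction 10.7.1.1, per the file headers. The intensity values deposited by the authors are each spot's background-subtracted processed signal, its mean signal, its background signal and the pixel SD within the spot. Control and outlier-flagged spots were left out, log2 was taken, the array's 75th percentile was subtracted and spots of 1 probe were averaged. The authors' deposited table of log2 values is the same data with another constant subtracted from each array (100.0% of probes within rounding). A gene is represented by the probe with the brightest mean, named through RefSeq where the accession matched.

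limma 3.58.1 in R 4.3.3 tested genes above background on at least 3 of 6 arrays, and was checked on simulated data. No filter on dim probes, a stricter filter, normexp background (offset 50), quantile, array-median and spike-in scaling, and other probe rules were alternatives.

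Genes are named where they were among the 15 largest measured differences or 8 largest bounds a direction, among the first 3 or the 5 most different of each of 61 lists, or among the 10 smallest p. Predicted and unnamed transcripts were left out of the largest differences. A few other list members are named after their values were seen. The comparison, the lists and the members were chosen with earlier results of these data known. Some list members are counted but not reported here by name.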

Additional observations from a re-analysis of the deposited data

Results flagged for a closer look

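In 6 genes the 5-week null array stood at least 2-fold to one side of the wild-type array and both older null arrays at least 2-fold to the other. Each was picked out by comparing the signs of the 3 differences. Whether these differ beyond the spread between mice was not tested, since each group holds 1 array. The limma test given above cannot decide it, because its error is not a spread between mice of a group. Gast had a log2 difference of 1.77 at 5 weeks and of -1.20 and -5.03 at 10 and 50 weeks. Lor, a cornified envelope gene, had 1.04 at 5 weeks and -4.79 and -6.82 later. The major urinary protein genes Mup1 and Mup3 had 1.94 and 1.97 at 5 weeks, then -1.69 and -2.09 for Mup1 and -1.98 and -1.93 for Mup3. Scg2, a granin of endocrine cells, had 1.06, then -1.12 and -1.28. Muc13, a membrane mucin, went the other way, with -1.01 at 5 weeks and 2.02 and 3.20 later. At 5 weeks Muc13 was under 2-fold in 5 of 6 alternatives (-0.61 with normexp background), and Lor and Scg2 in that 1 alone (0.30 and 0.54). The sex-linked genes separate the 5-week pair from the 4 older arrays in the same way, and their part in these 6 patterns was not tested.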

How the results depend on the processing

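The counts of genes apart at 5 weeks depend on how dim probes are treated. Against 851 genes 2-fold higher, normexp background gave 334, no filter 1870 and a filter that asked both signals for 4 times the lowest one above background 377. Against 1081 lower they gave 260, 2293 and 412. At 4-fold they gave 52, 479 and 68 against 196 higher, and 13, 407 and 23 against 111 lower. Asking the null value to lie beyond the older wild-type arrays too, an alternative chosen after seeing the data, left 696 lower genes at 2-fold and 67 at 4-fold. Without a filter on dim probes, 24.6% and 18.3% of the higher genes were higher at 10 and 50 weeks and 19.9% of the lower ones were lower at 50 weeks, beside 6.01%, 3.02% and 8.81% of all genes. The limma count of 0 became 12 with normexp and stayed 0 under the other 6 settings, whose lowest adjusted p ran from 0.11 to 0.83.

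The median difference of the neutrophil list turned from 1.1 to -0.17 under the stricter filter, and Pigr, the antibody transporter, from -1.15 to 0.53 when its probes were averaged. Among other dim genes, Egf, Duox2, Lif and Hrh2 were each under 2-fold in 1 of 6 alternatives, at -0.80, -0.57, -0.50 and -0.66. Among lower genes seen only in the wild-type array, so were Reg3a, Olfm4 and Cd163. Of the higher genes, Hgf, Plau, Pdx1 and Muc4 were each under it in 1 of 6, at 0.27, 0.29, 0.50 and 0.60. Clec7a, Inhba and Mmp10 were too, at 0.72, 0.81 and 0.85. Mpeg1 was under it in 2 of 6, down to 0.56. Other named genes also fell under it. Ereg, Areg, Nrg1, Il1b, F3, Plaur and Timp1 stayed past 2-fold in all 6. Of 486 list medians under the alternatives, 321 moved by less than the error of repeated spots within an array, 164 by more, and the neutrophil one as above. A change of sign occurred 30 times, in 19 of 61 lists. Spike-in scaling moved the median of all genes from -0.02 to 0.15, so differences near 0 are relative to the scaling. No paired analysis was possible because each group holds 1 array with no replicate number. The array count, 1 mouse a side, limits every value here: no spread between mice could be measured, and for probes near background only bounds can be given.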

Other observations

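Genes of the mitochondrial respiratory chain were nearly level in the 5-week pair, with 16 of 21 differences above 0, 1 past 2-fold and a median of 0.11, which ran from -0.07 to 0.27 over the alternatives. Of the 21 null values 16 lay above all 3 wild-type arrays. Ndufa4, a subunit of the chain, stood at 5.44 in the wild-type and 5.57 in the null array. Ppargc1a, the co-activator of mitochondrial genes, was the 1 member past 2-fold, at 0.87 and 1.98. In the 10-week and 50-week pairs 2 of 21 were 2-fold lower and the medians were -0.33 and -0.26.

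Clock genes had 4 of 14 scored members 2-fold lower (beside 5.95% of all scored genes) and 0 higher. Per3 was at least 3.03-fold lower and Per2 at least 2.01-fold, both seen only in the wild-type array. The bound of Per2 was under 2-fold in 5 of 6 alternatives, down to a log2 difference of -0.27, and that of Per3 in 1 of 6 (-0.44). Cry2 was 2.61-fold lower (2.17 against 0.78) and Tef 2.11-fold (3.30 against 2.23). These genes cycle through the day, and the hour at which the tissue was taken is not given in the sources used here. Among genes of ketone body and fatty acid handling, 11 of 13 differences were below 0 with a median of -0.41. Bdh2, a short-chain dehydrogenase, was 6.18-fold higher (-2.35 against 0.28), as in the older pairs, where it stood at 1.79 and 1.38 in the null against -0.63 and -0.99 in the wild-type arrays. In lipid and sterol synthesis, Scd2 was 3.10-fold higher and Scd1, a like desaturase, at least 10.5-fold lower, on a wild-type spot whose pixel SD was 31.0% of its mean.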
